A study of Mus musculus with 9 samples.

Results

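The genes described here are the myogenic bHLH transcription factors Myf5, Myod1 and Myog, the bHLH repressor Msc, and the MEF2 transcription factors Mef2a, Mef2c and Mef2d. They were measured in mouse tumours and in normal skeletal muscle. The members were listed by name, as every probe set whose only gene symbol was theirs, and 7 of the 8 listed genes had a probe set among the 14440 genes of the table. Myf6, the remaining myogenic bHLH factor, is not analysed here. The 7 genes were covered by 16 probe sets, each with values on all 9 arrays.

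The 5 tumours came from mice labelled MYF-5 CRE/SSM2, and the 4 muscle samples from wild type mice. Their labels were CC23 for tumour 1, CC17-B for tumour 2, CC17-A for tumour 3, SSM5 for tumour 4 and SSM4 for tumour 5, and those of muscles 1 to 4 hind limb, intercostal, forelimb and hind limb 2. SYT-SSX is the fusion protein that defines human synovial sarcoma, and the sample titles do not name it. The Cre is named after Myf5, which is also a gene measured here. The labels do not describe the Cre and fusion alleles, the site of a tumour or the age of the mice. Nor is it given that the arrays represent separate animals, or whether CC17-A and CC17-B share a mouse, and p-values here reflect only how far these samples spread, which may be technical. Tissue and genotype differ together between the groups and cannot be told apart.

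The myogenic bHLH factors bind DNA at E-boxes as dimers with E proteins and turn on muscle genes. Myf5 and Myod1 commit cells to the muscle lineage and mark activated satellite cells, and Myog acts when myoblasts differentiate and fuse. MEF2 factors bind an A/T-rich site and work together with the bHLH factors on the promoters of contractile and metabolic genes. Msc, also called MyoR, competes for E proteins and E-boxes and represses MyoD activity. In adult muscle Myf5, Myod1 and Myog are held at low levels, Myf6 is the main myogenic bHLH factor of mature fibres, and Mef2c and Mef2d act there too.

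Promoters of the members are shown because they hold the motifs that these 2 families of factors bind. A match is a description of the letters, not of a bound site. RefSeq promoter windows of build GRCm38.p6, 250 bases before to 50 bases after a gene's start, were available for 5 of the 7 genes. Capitals mark E-boxes (CANNTG) and matches to the MEF2 consensus with either end base left free, searched on both strands, and no match of one motif overlapped a match of the other. The Myog window, at chr1:134289754-134290053 on the plus strand, held the E-boxes CACATG at −138 and CAGTTG at −12 and the MEF2-like CTATATTTAT at −64, counted from the start to the first base of the match. The Mef2a window, at chr7:67372809-67373108 on the minus strand, held the full MEF2 consensus as CTAAAAATAG at −2 and no E-box. A Mef2c window, at chr13:83503784-83504083 on the plus strand, held the E-boxes CAAGTG at −234 and CATATG at −100 and the MEF2-like GTAATTTTAA at −146.
Myog: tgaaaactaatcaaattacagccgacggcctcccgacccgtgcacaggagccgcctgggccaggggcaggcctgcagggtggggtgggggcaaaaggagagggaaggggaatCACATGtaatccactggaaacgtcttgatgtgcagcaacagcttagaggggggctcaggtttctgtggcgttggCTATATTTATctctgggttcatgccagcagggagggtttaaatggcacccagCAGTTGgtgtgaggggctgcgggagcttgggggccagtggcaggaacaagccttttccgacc
Mef2a: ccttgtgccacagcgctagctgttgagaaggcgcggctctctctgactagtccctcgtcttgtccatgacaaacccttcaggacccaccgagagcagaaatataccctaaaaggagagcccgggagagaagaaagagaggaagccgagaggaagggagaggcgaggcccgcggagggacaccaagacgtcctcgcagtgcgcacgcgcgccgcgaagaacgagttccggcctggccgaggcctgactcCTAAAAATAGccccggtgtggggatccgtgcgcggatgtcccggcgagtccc
Mef2c: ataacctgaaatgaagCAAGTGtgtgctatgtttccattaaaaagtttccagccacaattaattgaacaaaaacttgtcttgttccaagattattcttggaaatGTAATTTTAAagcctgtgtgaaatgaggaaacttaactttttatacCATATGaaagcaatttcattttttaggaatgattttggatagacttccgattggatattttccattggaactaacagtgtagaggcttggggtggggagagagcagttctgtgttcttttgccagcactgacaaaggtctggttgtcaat
Of 32851 mouse promoter windows of this length, 72.3% held an E-box, 3.19% the full MEF2 consensus and 7.66% the MEF2 consensus with an end base free. Of the 7 windows of these genes, 3 held an E-box, 1 the full consensus and 3 the freer form. Myod1 and Msc are named without a promoter.

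Levels below are scaled intensity, the deposited MAS5 signal after the arrays were brought to a common 2% trimmed mean, by factors from 0.909 to 1.29. Each array had a floor at its 40th percentile, 96.5 to 137 after scaling, and a probe set at or over the floor on 4 or more arrays was tested. Fold changes are differences of mean log2(scaled intensity + 16), tumour minus muscle, with limma's SE and a Benjamini-Hochberg adjusted p over the 17433 probe sets tested, and a call is an adjusted p under 0.05. The pseudocount understates the change of dim probe sets. All genes tested had a median log2 fold change of 0.23, and a fold change of a member is read against it. The ratio of the 3-prime to the 5-prime Actb control probe set, a sign of RNA integrity, was 12.7, 2.90, 1.99, 4.54 and 2.04 in tumours 1 to 5 and 1.62 to 1.93 in muscle. Its part in the results was not tested.

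Several of these muscle lineage factors were called lower in the tumours, and no member was called higher. Of the 15 member probe sets tested, 9 were lower in tumours, 0 were higher and 6 were not called. The 9 held all 5 probe sets of Mef2c and the 1 of Myf5. By limma 16.5% of all probe sets tested were lower and 25.7% were higher, 42.2% in all. At an unadjusted p under 0.05 the member counts were 11 lower and 0 higher. By the main probe set of each gene, the brightest on average over the 9 arrays, 4 of 7 genes were lower (Myf5, Myod1, Mef2c and Mef2d) and 3 were not called (Myog, Msc and Mef2a). Among the main probe sets of all 10646 genes tested, 17.4% were lower and 29% were higher, 46.5% in all. Myf5 was tested only because every muscle was above the floor, so its call adds no support to this count, and of the other 6 genes 3 were lower. All tumours lay below all muscles for 3 of the 7 main probe sets, Myf5 among them, and for 15.2% of all genes tested. All tumours lay above all muscles for 0 of the 7 and for 25.3% of all genes tested. Without muscle 1, or without muscle 3, only 2 of the 7 genes were called lower, since Myf5 was then not tested and Mef2d lost its call.

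**Figure D1:**
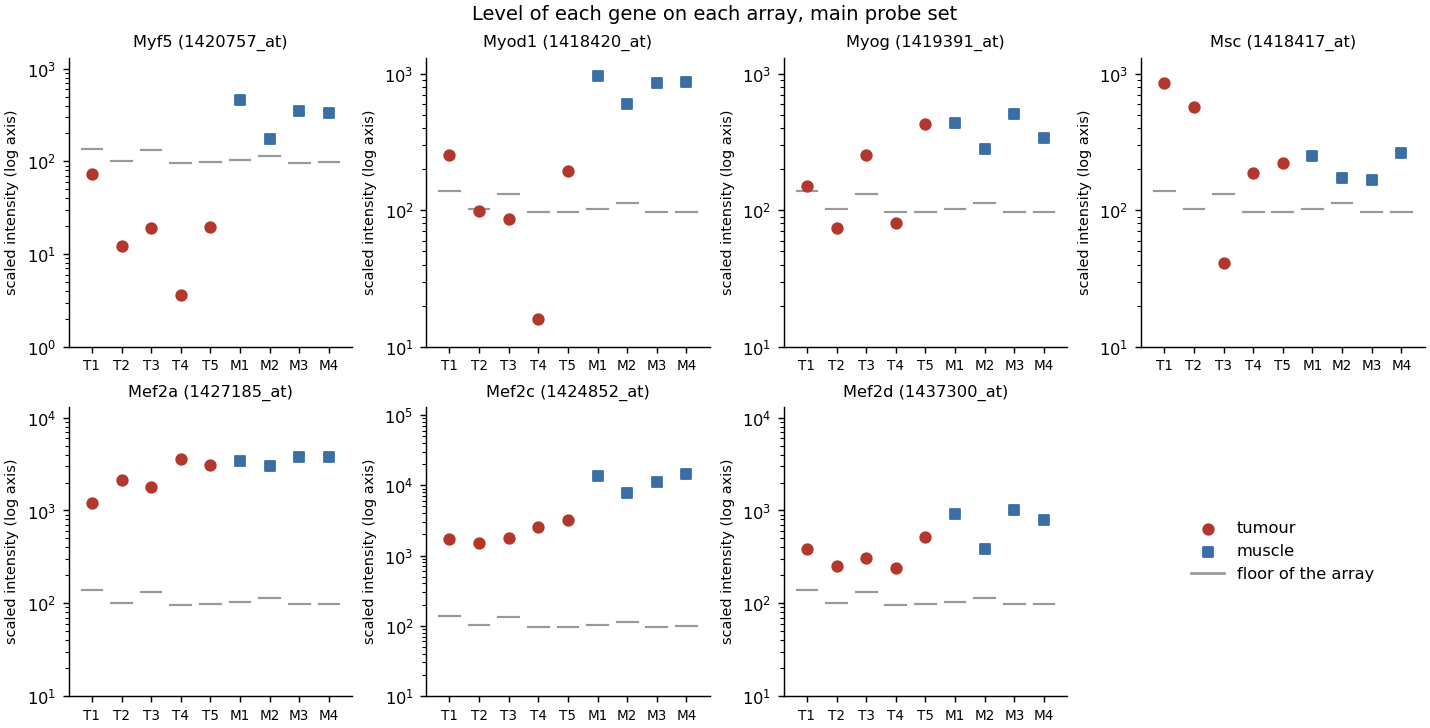
Scaled intensity (log axis) of the main probe set of each gene on each array, with tumours 1 to 5 as red circles (T1 to T5), muscles 1 to 4 as blue squares (M1 to M4) and the floor of each array as a grey bar. Myf5, Myod1 and Mef2c have every tumour below every muscle, and the Myf5 points of all 5 tumours lie below the floor.

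**Figure D2:**
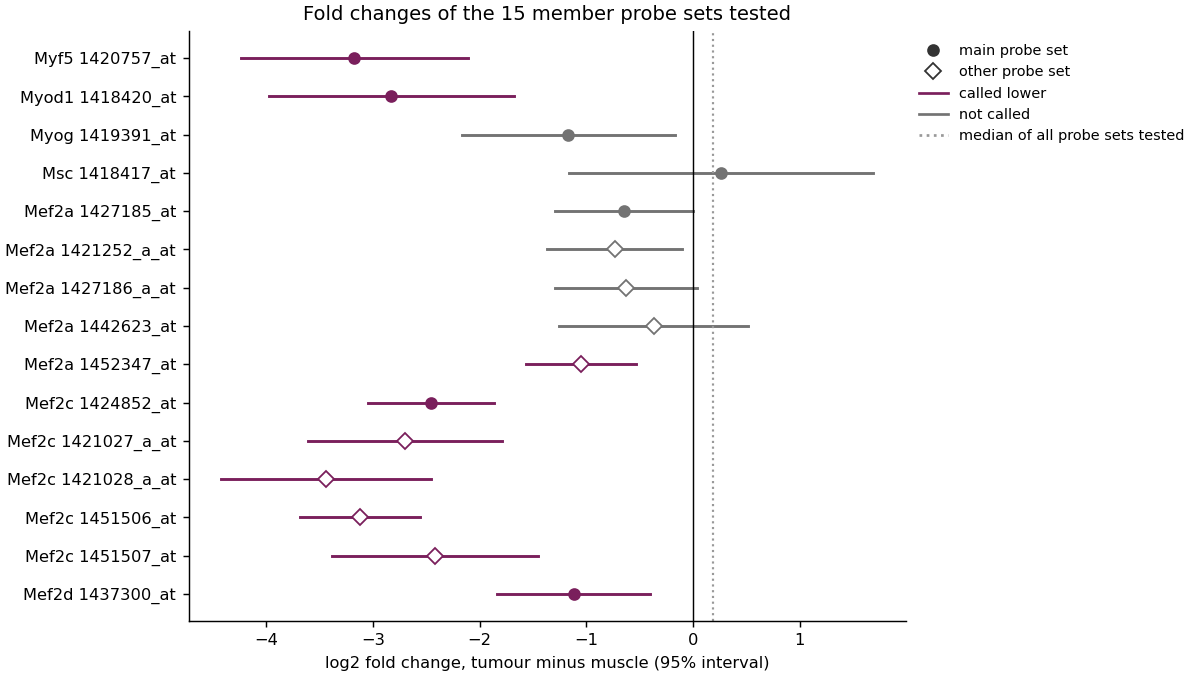
Log2 fold change, tumour minus muscle, of the 15 member probe sets tested, with the 95% interval of the limma fit. Filled circles are main probe sets, open diamonds other probe sets, purple those called lower and grey those not called. The Myf5 point is a fit to tumour values below the floor and is no bound. All 5 Mef2c probe sets lie left of −2, and the Msc interval reaches from −1.16 to 1.69.

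Myf5 was measured in muscle and not above the floor in any tumour. Myf5 (1420757_at) was at 73.8, 12.3, 19.2, 3.67 and 19.7 in tumours 1 to 5, against 461, 174, 352 and 330 in muscles 1 to 4. Every tumour was below its array's floor and every muscle above it, with the intercostal sample lowest. The tumours averaged 25.8 ± 27.7 (SD, n = 5) and the muscles 329 ± 118 (SD, n = 4). Because the tumours have only a bound, Myf5 was at least 2.56-fold lower, the muscle mean against the tumour floors. The limma fit, which used the tumour values below the floor, gave an adjusted p of 0.000389, and of 0.000385 with no filter on dim probe sets. Neither p is a test of that bound. The probe set passed the filter through the muscle arrays alone, so without any 1 of them it was not tested. In bulk samples, fewer cells of a type and less RNA per cell cannot be told apart.

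Myod1, the MyoD factor, was lower in tumours, and 2 of the 5 tumours reached the floor. Myod1 (1418420_at) was at 254, 98.6, 86.9, 15.9 and 193 in tumours 1 to 5, against 956, 604, 849 and 872 in muscles 1 to 4. The tumours at the floor or above were 1 and 5, and the highest tumour was under the lowest muscle. The tumours averaged 130 ± 94.0 (SD, n = 5) and the muscles 820 ± 151 (SD, n = 4), and the fold change was −2.83 (SE 0.52, adjusted p = 0.00129). With a pseudocount of 64 in place of 16 the fold change of Myod1 was −1.68, and with a pseudocount of 1 it was −3.51, both called. The other Myod1 probe set, 1447675_x_at, was below the floor on all arrays, at 5.29 to 55.6 in tumours and 2.82 to 87.3 in muscle, and was not tested.

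Myog, the factor of myoblast differentiation, was not called, and 1 tumour lay within the muscle range. Myog (1419391_at) was at 150, 74.5, 254, 80.3 and 425 in tumours 1 to 5, against 436, 281, 505 and 339 in muscles 1 to 4. Tumour 5 lay inside the muscle range and the other 4 tumours below it, with tumours 2 and 4 under the floor. The tumours averaged 197 ± 146 (SD, n = 5) and the muscles 390 ± 100.01 (SD, n = 4). The fold change of −1.17 (SE 0.45, 95% interval −2.16 to −0.17) was not called (adjusted p = 0.0583). Without tumour 5 it was −1.50 and called (adjusted p = 0.0103). Myog was also called on the unscaled deposited values (−1.29, adjusted p = 0.0392), after centring on array medians (−1.40, adjusted p = 0.0235), after quantile normalization (−1.42, adjusted p = 0.0188) and with array weights (−1.23, adjusted p = 0.0297).

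Msc, the bHLH repressor, was not called, and its SD among the tumours on the log2 scale was 1.53, where the other member probe sets tested had 0.35 to 1.195. Msc (1418417_at) was at 853, 566, 40.9, 189 and 223 in tumours 1 to 5, against 249, 173, 166 and 261 in muscles 1 to 4. Tumours 1 and 2 lay above every muscle, tumour 3 below every muscle and under its floor, and tumours 4 and 5 within the muscle range. Tumours 2 and 3, labelled CC17-B and CC17-A, were thus on opposite sides of the muscle range. The tumours averaged 374 ± 330 (SD, n = 5) and the muscles 212 ± 49.6 (SD, n = 4). The fold change was 0.26 (SE 0.65, 95% interval −1.16 to 1.69, adjusted p = 0.774), and it was −0.16 without tumour 1, −0.014 without tumour 2 and −0.018 with array weights.

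Mef2c, the MEF2 factor of muscle and heart development, was lower in tumours on every probe set. Mef2c (1424852_at) was at 1723, 1518, 1787, 2513 and 3166 in tumours 1 to 5, against 13432, 7741, 11215 and 14323 in muscles 1 to 4. All tumours were well above the floor and below every muscle. The tumours averaged 2141 ± 685 (SD, n = 5) and the muscles 11678 ± 2932 (SD, n = 4), and the fold change was −2.45 (SE 0.27, adjusted p = 4.8e-05). The other 4 probe sets had fold changes of −2.42 (1451507_at), −2.70 (1421027_a_at), −3.12 (1451506_at) and −3.44 (1421028_a_at), with adjusted p from 1e-05 to 0.00118, and on each the groups did not overlap. Over all probe sets tested, 14.5% had every tumour below every muscle.

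The 5 Mef2c probe sets ordered the tumours differently. As a percent of the muscle mean, 1451507_at stood at 9.87, 9.71, 12.9, 37.8 and 39.5 in tumours 1 to 5, and 1421027_a_at at 41.0, 20.9, 10.7, 7.74 and 11.3. The tumours labelled SSM5 and SSM4 were thus the highest on the first probe set and not on the second. On the main probe set the tumours ran from 13.0 to 27.1 percent and on 1451506_at from 8.57 to 14.5 percent. These 3 probe sets, 1424852_at, 1451506_at and 1451507_at, share 1 sequence accession in the annotation.

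Mef2a, a broadly expressed MEF2 factor, was not called by its main probe set and was called by 1 of its 5. Mef2a (1427185_at) was at 1216, 2152, 1774, 3608 and 3128 in tumours 1 to 5, against 3413, 3015, 3772 and 3732 in muscles 1 to 4. Tumours 4 and 5 lay within the muscle range and tumours 1 to 3 below it. The tumours averaged 2376 ± 980 (SD, n = 5) and the muscles 3483 ± 351 (SD, n = 4), with a fold change of −0.65 (SE 0.30, 95% interval −1.30 to 0.00, adjusted p = 0.100). It was called without tumour 4 (−0.82, adjusted p = 0.0366) and as the mean of all its probe sets (−0.69, adjusted p = 0.0116). Mef2a 1452347_at was called, at 1554, 1385, 779, 1161 and 1571 in tumours 1 to 5 and 2385, 3007, 2886 and 2233 in muscles 1 to 4. This probe set shares its annotated sequence accession with the main one. Its groups did not overlap, and its fold change was −1.05 (SE 0.24, adjusted p = 0.00422).

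The remaining Mef2a probe sets were not called, at −0.74 (1421252_a_at, adjusted p = 0.0583), −0.63 (1427186_a_at, adjusted p = 0.116) and −0.37 (1442623_at, adjusted p = 0.488). The first was called in 7 of 22 alternative settings and the second in 4 of 22. Without tumour 1 the first had a fold change of −0.91 (adjusted p = 0.0153) and the second one of −0.87 (adjusted p = 0.00884), and without tumour 2 the first had −0.85 (adjusted p = 0.0442). As a percent of the muscle mean, 1427185_at stood at 34.9, 61.8, 50.9, 104 and 89.8 in tumours 1 to 5, and 1421252_a_at at 95.7, 81.7, 57.7, 34.4 and 46.7. Tumour 1 was the lowest tumour on the main probe set and the highest on the other, and tumour 4 the reverse. Tumour 1 also had the highest Actb ratio, and its part here was not tested.

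**Figure D3:**
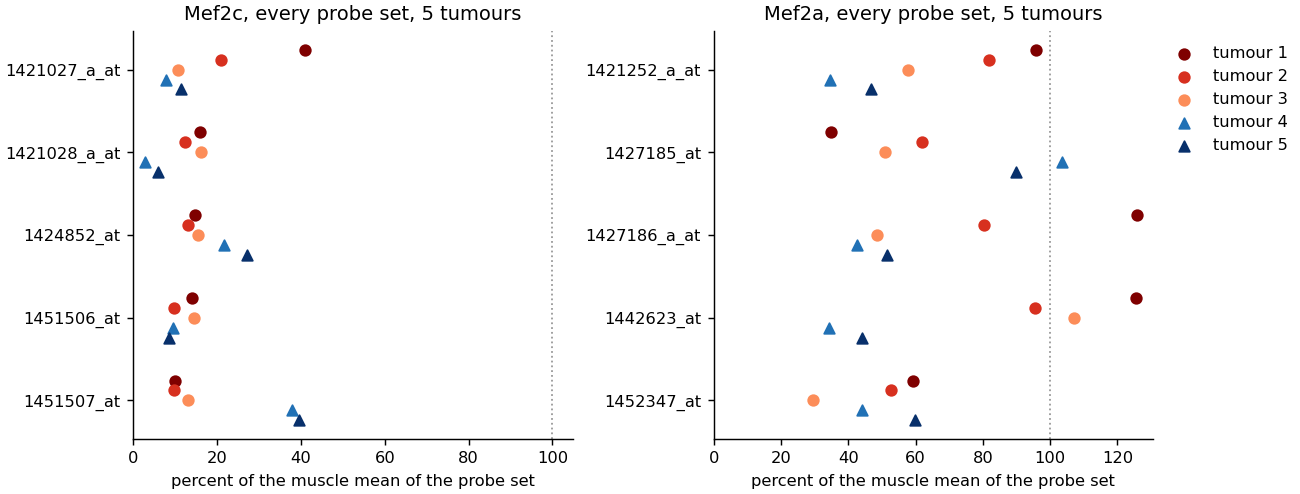
Level in each tumour as a percent of the muscle mean, for every Mef2c probe set (left) and every Mef2a probe set (right), with tumours labelled CC as circles, tumours labelled SSM as triangles and the dotted line at the muscle mean. All Mef2c points lie at or below 41.0 percent, while Mef2a points run from 29.6 to 126 percent and the order of the tumours changes between probe sets.

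Mef2d, a MEF2 factor that in muscle has a tissue-specific splice form, was lower in tumours with overlap. Mef2d (1437300_at) was at 387, 251, 309, 240 and 523 in tumours 1 to 5, against 913, 384, 1016 and 795 in muscles 1 to 4. The intercostal sample, muscle 2, fell within the tumour range and was the lowest muscle. The tumours averaged 342 ± 117 (SD, n = 5) and the muscles 777 ± 277 (SD, n = 4), and the fold change was −1.12 (SE 0.33, adjusted p = 0.0170). The call ended without muscle 1 (−1.01, adjusted p = 0.0560), without muscle 3 (−0.96, adjusted p = 0.0599) and after centring on the ribosomal protein and proteasome genes (−0.79, adjusted p = 0.0660), a scaling that moved the median of all genes to 0.56.

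Whether 2 members changed by different amounts was tested on the log2 difference of their main probe sets within each array. The test was an exact two-sided permutation test over all 126 splits of the arrays, whose smallest p is 0.00794, with p adjusted over the 7 pairs compared. The values below hold for the main probe sets only. The change of Mef2c minus that of Mef2a was −1.81 on the log2 scale (exact p = 0.00794, adjusted p = 0.0370), and the change of Mef2c minus that of Mef2d was −1.34 (exact p = 0.0159, adjusted p = 0.0370). The change of Msc exceeded that of Myod1 by 3.09 (exact p = 0.0159, adjusted p = 0.0370). In each of these pairs all 5 tumours lay beyond all 4 muscles. Myod1 was below the floor in tumours 2, 3 and 4 and Msc in tumour 3, so the Msc minus Myod1 difference rests partly on values below the floor. Each of the 3 calls was lost in 11 of 17 alternative settings.

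The other pairs were not called. Myog minus Myod1 gave 1.66 (exact p = 0.0317, adjusted p = 0.0556) and Mef2c minus Myog −1.29 (exact p = 0.0397, adjusted p = 0.0556). Mef2d minus Mef2a gave −0.47 (exact p = 0.349, adjusted p = 0.373). Myod1 minus Myf5 gave 0.35 (exact p = 0.373, adjusted p = 0.373), with Myf5 below the floor in all tumours. The adjusted p of the 3 called pairs became 0.05 to 0.0625 without 1 array in 8 of 9 cases, where fewer splits exist, and was 0.0400 without tumour 4. Without tumour 4, Myog minus Myod1 (1.41) and Mef2c minus Myog (−1.58) were also called (exact adjusted p = 0.0400).

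The tumours differed in how much muscle fibre signal they held. Of 14 mature fibre markers, 13 were lower in tumours and 1, the fast myosin Myh1, was not called, where 17.4% of all genes tested were lower. Their summed level was 135660, 44694, 8118, 825 and 165492 in tumours 1 to 5, or 17.6, 5.78, 1.05, 0.107 and 21.4 percent of the muscle mean, against 622619 to 839182 in muscle. Tumour 4 had 1 of the 14 markers at its floor and the other tumours 11 to 14. By the main probe sets, Myod1 in tumour 4 stood at 1.94 percent of its muscle mean, Mef2c at 21.5 percent and Mef2d at 30.8 percent. The Myod1 value, 15.9, was below that array's floor of 96.5, so its percent is no measured level. The other Mef2c probe sets ran from 2.76 to 37.8 percent in tumour 4. In tumour 5, Myog stood at 109 percent and Myod1 at 23.6 percent. The part of fibre RNA in the level of a member was not tested.

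Without the tumours labelled CC23 and SSM4, the 2 with the highest fibre markers, Myog was called at −1.58 (adjusted p = 0.0144). This setting was chosen after seeing the data. Msc was then at −0.24 (adjusted p = 0.793). SSM4, which is tumour 5, was the only tumour inside the muscle range for Myog, and Myog was also called without that tumour alone.

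**Figure D4:**
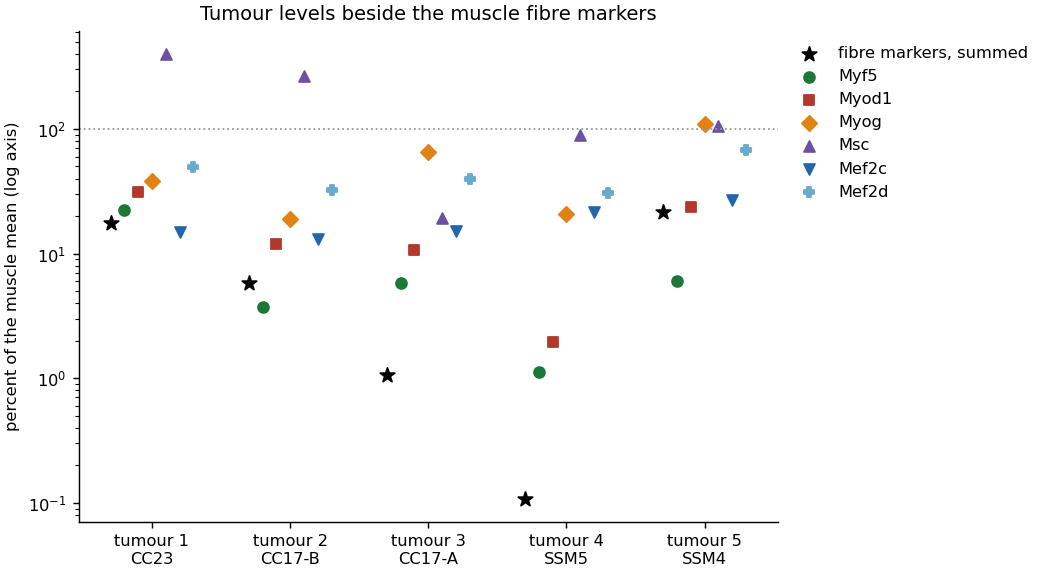
Level in each tumour as a percent of the muscle mean (log axis) for 6 member genes and for the summed fibre markers (stars), with the dotted line at 100 percent. The stars run from 0.107 percent in tumour 4 to 21.4 percent in tumour 5. Each member is shown by its main probe set, on which Mef2c ran from 13.0 to 27.1 percent. On Mef2c 1421028_a_at tumour 4 stood at 2.76 percent. Points below the floor are not marked apart. They are Myf5 in all tumours, Myod1 in tumours 2, 3 and 4, Myog in tumours 2 and 4 and Msc in tumour 3.

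Markers of other cell types were looked at beside the members, where 29% of all genes tested were higher and 17.4% lower. Of 6 satellite cell markers 1 was higher (Pax7), 3 were lower (Cdh15 at −1.22, Itga7 at −1.41 and Chodl at −3.47) and 2 were not called. Pax7 was at 229 ± 70.2 in tumours (SD, n = 5) and 93.3 ± 10.2 in muscle (SD, n = 4), with muscles 2, 3 and 4 below the floor. The satellite cell markers summed to 976 to 2439 in tumours and 2016 to 3559 in muscle. Of 3 embryonic muscle markers tested 1 was lower, Actc1, and 2 were not called, with Myh3 at a fold change of 0.06. The sums were 219 to 1896 in tumours and 2370 to 29720 in muscle, where Actc1 (mean 21304) made up most of them. Endothelial markers were lower for 5 of 9, at 2619 to 4395 in tumours and 5410 to 6298 in muscle. Macrophage markers were higher for 2 of 5, at 5327 to 11699 in tumours and 3531 to 4216 in muscle. Among the 2 was Aif1, which passed the filter through the tumours alone. Of 8 neuronal markers 2 were tested and both were higher, at sums of 1415 to 6838 in tumours and 510 to 687 in muscle. Of 4 smooth muscle markers tested, 1 was higher and 2 were lower, at 3215 to 8810 in tumours and 7135 to 8149 in muscle. The higher one was Myocd, which passed the filter through the tumours alone, so its call adds no support to that count. Tumour 1 held the 8810, of which Myocd made up 3452. By limma 0 of 3 B cell markers and 0 of 3 adipocyte markers tested were called, with 1 and 2 of them lower at an unadjusted p under 0.05. The B cell markers summed to 344 to 510 in tumours and 526 to 830 in muscle, and the adipocyte markers to 488 to 33849 in tumours and 28499 to 115492 in muscle. Muscle 2, the intercostal sample, held the 115492, against 28499 to 35324 in the other muscles. On the main probe sets muscle 2 was also the lowest muscle for Myf5, Myod1, Myog, Mef2a, Mef2c and Mef2d. It was the highest muscle on Mef2a 1421252_a_at, 1442623_at and 1452347_at, and on Mef2c 1451507_at muscle 3 was the lowest. The part of these cell types in the levels of the members was not tested.

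The inhibitors and partners of the bHLH factors were higher or not called. Of the 7 E protein and Id genes, 4 were higher, 0 were lower and 3 were not called, with a median fold change of 1.52. Among all genes tested 29% were higher and 17.4% lower, with a median of 0.23. At an unadjusted p under 0.05, 5 were higher and 0 lower by limma. Id2, which binds E proteins and keeps them from pairing with MyoD, was at 12293, 19810, 8513, 7989 and 8728 in tumours 1 to 5, against 570, 1315, 795 and 628 in muscles 1 to 4. Every tumour was above every muscle, with a fold change of 3.75 (SE 0.32, adjusted p = 1.2e-05). Id3, another Id inhibitor, rose by 1.66, and the E proteins Tcf12 and Tcf3, the partners of the myogenic factors on E-boxes, rose by 1.66 and 1.43.

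Other repressors of MyoD activity were higher for 6 of the 9 tested, lower for 1 and not called for 2, with a median of 2.01. The shares of all genes tested were 29% higher and 17.4% lower, and their median was 0.23. Twist1, a mesenchymal bHLH factor that blocks MyoD, was at 3341, 1540, 1482, 6260 and 3371 in tumours 1 to 5, against 39.0, 295, 181 and 137 in muscles 1 to 4, and its fold change was 4.21 (SE 0.53, adjusted p = 0.000113). Tcf21, a bHLH factor of mesenchyme, was below the floor in all muscles and at least 6.98-fold higher in tumours. It passed the filter through the tumours alone, so its call adds no support to the count of higher genes. Snai2, a zinc finger repressor that occupies E-boxes, rose by 2.91, and Hey1, a Notch target, by 2.15. The member that fell was Bhlhe40, at −1.39 (adjusted p = 0.00199), named after its value was seen.

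MEF2 cofactors and regulators held genes called in either direction. Of 16 tested, 5 were higher, 7 lower and 4 not called, where 29% of all genes tested were higher and 17.4% lower, so the count of higher genes was near the share of all genes. The list had a median of 0.03 that turned negative on the unscaled deposited values (−0.10), after centring on array medians (−0.21) and after quantile normalization (−0.26). Vgll2, a muscle cofactor of TEAD and MEF2 factors, averaged 543 ± 494 over the tumours (SD, n = 5) and 2889 ± 490.5 over the muscles (SD, n = 4), with a fold change of −2.76 (adjusted p = 0.0012). Ppp3cb, a catalytic subunit of the phosphatase calcineurin, which activates MEF2, fell by 1.58. Myocd, a cofactor of SRF that also has a MEF2-binding form, was below the floor in all muscles and at least 5.12-fold higher in tumours. It passed the filter through the tumours alone, so its call adds no support to the count of higher genes. Tumour 1 was at 3452 and the other tumours at 223 to 690, and without tumour 1 the bound was 3.31-fold. Mapk7, the kinase ERK5, had a fold change of 1.74 (adjusted p = 0.0360) and lost its call without tumour 2, 3 or 4 or muscle 2, 3 or 4 (adjusted p from 0.0694 to 0.106). It was below the floor in tumour 1 and in muscles 2, 3 and 4.

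Among the upstream factors of muscle precursors, 4 of 11 tested were higher, 3 lower and 4 not called, beside the 29% higher and 17.4% lower among all genes tested, with a median of −0.12 that was 0.21 after centring on the ribosomal protein and proteasome genes. Pax3, which acts upstream of Myod1 in the embryo, was at 1955, 1102, 1228, 313 and 362 in tumours 1 to 5, against 184, 263, 147 and 105 in muscles 1 to 4. Its groups did not overlap, and its fold change was 2.15 (SE 0.52, adjusted p = 0.00615). Eya1, a transcriptional cofactor and phosphatase, rose by 1.75. Eya2, another EYA cofactor, was below the floor in all muscles and at least 1.97-fold higher. It passed the filter through the tumours alone and was not tested without tumour 2, 3, 4 or 5, so its call adds no support to the count of higher genes. Pitx3, a homeobox factor of myoblasts and fibres, fell by 1.98 (adjusted p = 0.00439). Of the tumours only tumour 3 reached the floor for Pitx3, so its change rests partly on values below the floor.

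Genes that the bHLH and MEF2 factors switch on were lower in most cases. Of 18 muscle differentiation targets tested, 12 were lower, 1 was higher and 5 were not called, with a median of −3.71. Of 15 MEF2 target genes, 12 were lower, 0 higher and 3 not called, with a median of −3.41. Beside both lists, 17.4% of all genes tested were lower and 29% higher, with a median of 0.23. By limma 13 MEF2 targets were lower and 0 higher at an unadjusted p under 0.05. Smyd1 is in both lists, and Ckm and Mb are also among the fibre markers above, so these counts are not separate from them. All 4 embryonic muscle markers (Myh3, Chrng, Actc1 and Tnnt2) and the satellite cell marker Cdh15 are also differentiation targets, Pax7 is both a satellite cell marker and an upstream factor, and Myocd is both a smooth muscle marker and a MEF2 cofactor. The medians of the lists of E proteins and Id genes, repressors, differentiation targets and MEF2 targets kept their sign in the 4 other scalings.

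Smyd1, a muscle methyltransferase that is a direct MEF2 target, was at 140, 33.5, 2.40, 2.29 and 832 in tumours 1 to 5, against 7663, 3880, 7026 and 8122 in muscles 1 to 4. Its fold change was −6.44 (SE 0.96, adjusted p = 0.000342), and −7.32 without tumour 5. Stac3, a protein of excitation-contraction coupling, was at 369, 79.1, 36.4, 12.2 and 415 in tumours 1 to 5, against 8814, 2707, 8046 and 7909 in muscles 1 to 4. Tumours 1 and 5 were the highest for both genes, as they were for the fibre markers. For both genes tumours 2, 3 and 4 were below the floor. Unc45b, a myosin chaperone, fell by 5.22, with tumours 3 and 4 below the floor. Actc1, cardiac actin of embryonic muscle, fell by 5.19, with a fold change of −4.57 without tumour 4 and −6.17 without muscle 2.

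Ckm, muscle creatine kinase, was at 3351, 1227, 63.6, 12.6 and 12383 in tumours 1 to 5, against 64800, 49414, 61234 and 61939 in muscles 1 to 4. Its fold change was −6.50 (SE 1.47, adjusted p = 0.00446) and ran from −7.56 without tumour 5 to −5.37 without tumour 4, and it was −7.09 without tumour 1 and −5.74 without tumour 3. Myom1, an M-band protein, had a fold change of −5.71, or −6.44 without tumour 5, and Tnnc1, slow troponin C, one of −4.57, or −5.21 without tumour 5. For Ckm, Myom1 and Tnnc1 tumours 3 and 4 were below the floor. The member called higher among the differentiation targets was Cdkn1a, the cell cycle inhibitor p21, which rose by 1.31 (adjusted p = 0.0109) and is named after its value was seen.

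**Figure D5:**
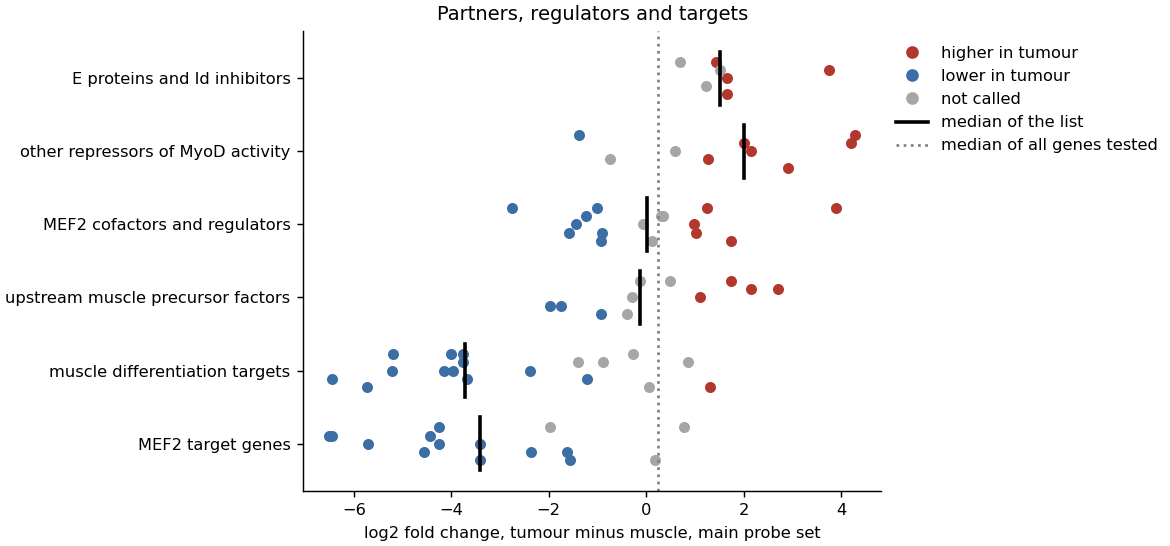
Log2 fold change, tumour minus muscle, of every tested gene of 6 lists of partners, regulators and targets, with red for higher in tumour, blue for lower and grey for not called. The black bar is the list's median and the dotted line the median of all genes tested, 0.23. The medians of the target lists lie at −3.71 and −3.41, and that of the repressors of MyoD activity at 2.01.

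The genes whose pattern over the 9 arrays was most like a member were found by the mean absolute difference of log2 levels, after each gene's own mean was subtracted, among 10645 genes. This was done for the 4 members whose log2 levels had an SD over 1. For Mef2c they were Dph3 and Fyco1, at 0.12, and Mtus1, at 0.14. The closest to Myf5 were Krt4 (0.22), Abcb4 (0.26) and the muscle chloride channel gene Clcn1 (0.27). All Myf5 values in tumours and the tumour means of Krt4 (75.2) and Clcn1 (57.2) were below the floor, so no order is read from these distances. Myod1 was nearest to Vldlr (0.26), Dapk2 (0.30) and Zbtb16 (0.32). The distances for Msc were larger, at 0.33 for Klf4, 0.43 for 6530402F18Rik and 0.44 for Efemp1. Myod1 was below the floor in tumours 2, 3 and 4 and Msc in tumour 3. The means of 6530402F18Rik, 128 in tumours and 111 in muscle, were near the floors. These distances thus also rest partly on values at or below the floor. The likeness is a description of these arrays, with no test.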

How the data were processed

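Total RNA of 5 tumours and 4 normal skeletal muscles was hybridised to Affymetrix arrays, 1 array per sample. The deposited values are intensity on a linear scale, made by the authors with MAS5 per the submitters' processing notes, and the MAS5 version, scaling target and detection calls are not given in the sources used here. The table held 30508 probe sets. Left out were 7 control probe sets, 496 with several symbols and 4424 with none in the array annotation, and 25581 remained, of which 25498 matched a RefSeq gene and 0 needed a new symbol.

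Arrays whose 2% trimmed means ranged 1.42-fold, from 430.2 to 610.0, were scaled to a common one. Probe sets at or above the 40th percentile of an array on at least 4 arrays were compared by limma 3.58.1 (R 4.3.3; lmFit and eBayes, intensity trend) on log2(scaled value + 16), two-sided, tumour against muscle with no covariate. Deposited intensity near the floor carries little signal over background, and precision is limited by the 9 arrays. A probe set below the floor on all arrays of one group has only a bound in it. The procedure was tested on simulated data.

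The text names every probe set of the members, up to 4 called genes with the largest change of each list, the 3 genes most like a member whose log2 SD is over 1, and markers whose values stand beside a member. Members and lists were chosen with earlier results of these data known. Tried instead were 4 scalings, a pseudocount of 1 or 64, 2 filters, 2 other choices of probe set, 3 other fits, averaging the CC17 pair and leaving out each array; 1 was added after seeing the data.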

Additional observations from a re-analysis of the deposited data

Results flagged for a closer look

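Myf5 in tumour 1, labelled CC23, was at 73.8 scaled intensity, while the other 4 tumours ran from 3.67 to 19.7. Its gap to the nearest tumour was 0.77 of the range of the group, over the critical value of 0.71 for 5 samples. All 5 tumours were below the floor of their arrays. Of 32 groups of values looked at, 1 stood out in this way, and chance flags about 5 percent of groups. Myf5 was at least 2.68-fold lower in tumours without tumour 1, against 2.56-fold with all 5.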

How the results depend on the processing

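The calls of Myod1 and all 5 Mef2c probe sets held in every alternative in which they were tested. Myf5 was not tested without any 1 muscle or with the floor at the 60th percentile, so its calls elsewhere are no sign of stability. Over the alternatives Myod1 ran from −3.51 to −1.68 and Mef2c from −2.82 to −2.13. Myog was called on the values as deposited (−1.29), with arrays centred on their median (−1.40), after quantile normalization (−1.42) and with array weights (−1.23). It was also called without the tumours labelled CC23 and SSM4 (−1.58), a setting chosen after seeing the data. Leaving out single arrays gave −1.50 to −0.93 for Myog. Mef2a was called as the mean of all its probe sets (−0.69), and leaving out single arrays gave −0.82 to −0.43. Mef2a 1421252_a_at was called in 7 of 22 alternatives and 1427186_a_at in 4 of 22. Mef2d lost its call with ribosomal protein and proteasome centring (−0.79), and leaving out single arrays gave −1.42 to −0.96. Msc turned negative with array weights (−0.018) and without CC23 and SSM4 (−0.24), and leaving out single arrays gave −0.16 to 0.82. Between 2 and 5 member genes were called lower without single arrays. The cause of these changes was not tested.

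Probe sets called higher fell to 2857 with the mean of all probe sets, against 4473. Those called lower numbered 2885, and 1783 with ribosomal protein and proteasome centring, 1912 with 1 probe set a gene and 1831 with the mean, and the last 2 settings test fewer features. MEF2 cofactors called lower numbered 7, and 3 with ribosomal protein and proteasome centring and 4 with the mean. Upstream factors called higher numbered 4, and 2 with the floor at the 60th percentile and 2 without CC23 and SSM4.

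The 3 pairs called each lost their call in 11 of 17 alternatives, 8 of them without single arrays and the other 3 as follows. Msc minus Myod1 was not called after quantile normalization (3.04, adjusted p = 0.0556), with the CC17 pair averaged (3.21, adjusted p = 0.05) or without CC23 and SSM4 (3.27, adjusted p = 0.05), all by the exact permutation test, and without single arrays it was 2.72 to 3.61. Mef2c minus Mef2a, also not called in those 3 settings, was −1.57, −1.77 and −2.04 in them, and −1.96 to −1.70 without single arrays. Mef2c minus Mef2d, likewise not called there, was −0.81, −1.31 and −1.16, and −1.51 to −1.21 without single arrays. Averaging or leaving out arrays allows fewer splits. With a pseudocount of 64, Myog minus Myod1 (1.38, exact adjusted p = 0.0333) and Mef2c minus Myog (−1.48, exact adjusted p = 0.0278) were called, and Myod1 minus Myf5 reversed to −0.20. Both were also called without tumour 4 (exact adjusted p = 0.0400). Without single arrays the first ran from 1.41 to 1.98 and the second from −1.58 to −1.08. The CC17 pair as a random block could not be fitted, since 1 pair gave no correlation estimate.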
